A study of Mus musculus with 28 samples.

Results

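The genes described here are 7 acute phase genes read in healing mouse skin, Saa1, Saa2, Saa3, Orm1, Orm2, Lbp and Ptx3. They were chosen by name, as were the gene lists used below, with earlier results of these data known. Counts of these genes set beside shares of all genes are therefore descriptions. All 7 were found among the 29068 gene rows of the count table and passed the filter on low counts that left 18107 genes. Skin from the wound site was sequenced in 28 libraries, 4 at each of 7 times called Day0, Day3, Day5, Day7, Day10, Day12 and Day14. All groups were C57BL/6J mice, MLKL+/+ in the study's methods, 8 weeks old and of both sexes, and the labels give natural healing for every group. The wound was a punch wound through the skin of the back. Day0 is the control of the labels, whereas the methods of the study name day 1 as the earliest time, so the sources do not settle whether the Day0 mice had been wounded. Each day came from different mice, killed at that time, and the sample took in the scab and the epithelial margins. The sources used here do not say whether a library is 1 mouse or a pool, and p-values therefore measure the spread between these libraries.

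Acute phase proteins are plasma proteins whose levels change within hours to days of injury or infection. Most are made by the liver under interleukin 6, interleukin 1 and related cytokines, acting through STAT3, NF-kB and the C/EBP factors, but several are also made where the injury is. The serum amyloid A proteins Saa1 and Saa2 are carried on high density lipoprotein and in mice come mainly from the liver, while Saa3 is made mainly outside it, by macrophages, fat cells and epithelia among others. Orosomucoids (Orm1, Orm2) are heavily glycosylated carriers of small molecules in plasma. Lbp hands bacterial lipopolysaccharide to Cd14, which passes it to the receptor Tlr4 with Ly96. Ptx3, the long pentraxin, is made by myeloid and stromal cells on stimulation, opsonises microbes and binds Tnfaip6.

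Read counts per gene were analysed, and every library held between 36706513 and 40655764 counts on genes. The totals were thus close, but some overlaps and calls on Day12 and Day14 changed with the scaling, as given below. Libraries of Day0 differed more among themselves than those of other days, with a biological coefficient of variation (the spread of a gene's level beyond counting error) of 26.5% against 5.77% to 10.8% on the later days. Wound markers moved as the days did: the summed level of 8 neutrophil markers was 16.4 to 42.6 CPM (counts scaled to library size) on Day0 and 4371 to 5516 CPM on Day3. In whole tissue, a change in the number of cells that express a gene and a change of RNA per cell cannot be told apart.

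The 7 genes lie at 4 places in the genome (GRCm38, GENCODE vM21). Saa1 (chr7:46740497-46742980, minus strand), Saa2 (chr7:46751790-46754313, plus strand) and Saa3 (chr7:46711998-46715700, minus strand) share a stretch of 42.3 kb with their relative Saa4. Orm1 (chr4:63344560-63348163) and Orm2 (chr4:63362449-63365878) stand on the plus strand in 21.3 kb with Orm3 between them. Lbp (chr2:158306493-158332852, plus strand) and Ptx3 (chr3:66219910-66225805, plus strand) stand alone. All values are sums over whole genes, exons and UTRs included, with no view of single isoforms.

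Some of these genes are so alike that reads can be hard to assign. The transcripts of Saa1 and Saa2 are 94.4% identical over 606 aligned bases, and those of Orm1 and Orm2 are 91.0% identical over 775, whereas Saa1 and Saa3 share 72.2% over 529. No stretch of 100 bases occurs unchanged in both Saa1 and Saa2, but 13.2% of the stretches of 50 bases in Saa1 do. For Orm1, 6.95% of its stretches of 100 bases and 20.4% of those of 50 bases also occur in Orm2. How such reads were counted is not given in the sources used here, so the split within each pair is uncertain to that degree, and the pairs were also fitted as sums.

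Promoter sequence bears on genes that move together, and 5 of the 7 genes have an entry in the RefSeq table for GRCm38.p6 (Saa1, Saa2, Saa3, Orm2 and Ptx3, not Orm1 and Lbp). Each of these 5 held, within 250 bases before its RefSeq start, the letters TTGCNNAA on one strand or the other, a form of the site that C/EBP factors are known to bind. Of all 32851 promoters of that length in the table, 9.56% held it. This motif was picked with the 5 sequences in view, so the count is a description and carries no test. The other motifs searched were the STAT form TTCNNNGAA, in 0 of 5 promoters and 7.02% of all, the TATA box TATAAA, in 1 of 5 (Orm2) and 7.59% of all, and the NF-kB consensus, in 0 of 5 and 3.90% of all. Both strands were read, and a promoter can hold several of these motifs. Below are bases -190 to -44 before the RefSeq start of 4 of these genes, which can lie some bases from the GENCODE start given above (for Saa2 the window ends where the GENCODE gene begins), shown because these windows hold the shared letters, which are in capitals. They are chr7:46751643-46751789 (plus strand) for Saa2, chr7:46715720-46715866 (minus strand) for Saa3, chr4:63362259-63362405 (plus strand) for Orm2 and chr3:66219697-66219843 (plus strand) for Ptx3, each written 5′ to 3′ on the strand of its gene.
Saa2: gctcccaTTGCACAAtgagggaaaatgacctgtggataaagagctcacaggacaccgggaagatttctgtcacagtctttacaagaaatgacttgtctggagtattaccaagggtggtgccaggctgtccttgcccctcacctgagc
Saa3: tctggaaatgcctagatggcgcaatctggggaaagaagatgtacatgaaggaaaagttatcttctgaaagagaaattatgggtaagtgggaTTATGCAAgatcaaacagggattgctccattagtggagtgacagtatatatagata
Orm2: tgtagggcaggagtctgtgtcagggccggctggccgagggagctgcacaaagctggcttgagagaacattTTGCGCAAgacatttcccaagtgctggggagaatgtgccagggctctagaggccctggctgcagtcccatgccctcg
Ptx3: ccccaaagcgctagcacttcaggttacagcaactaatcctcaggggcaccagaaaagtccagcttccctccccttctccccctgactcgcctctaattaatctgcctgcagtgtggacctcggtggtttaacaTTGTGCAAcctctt
In the same window Saa1 is 97.3% identical to Saa2 and holds the same capitals. The motif thus stands farther from the start in the Saa1 and Saa2 pair than in Saa3 and Ptx3.

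All 7 genes were higher on Day3 and on Day5 than on Day0, and from then on they parted. By edgeR's quasi-likelihood test at an adjusted p under 0.05, 7 of 7 were called higher on Day3 (31.8% of all 18107 genes tested were) and 0 lower (34.8% of all). On Day5 it was again 7 higher (29.0% of all) and 0 lower (30.6%). On Day7, 4 genes were higher, the 3 serum amyloid genes and Ptx3 (25.6% of all), and 0 were lower (24.8%). On Day10 the same 4 were higher (23.5% of all), while Orm1 and Lbp were lower (26.9%). On Day12, 0 were higher (21.7% of all) and Saa3 and Lbp were called lower (25.6%). On Day14, Orm2 was higher (28.2% of all), and Saa3, Lbp and Ptx3 were called lower (34.5%). The calls of Saa3 on Day12 and Day14 were lost without single libraries, as given with their counts.

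**Figure D1:**
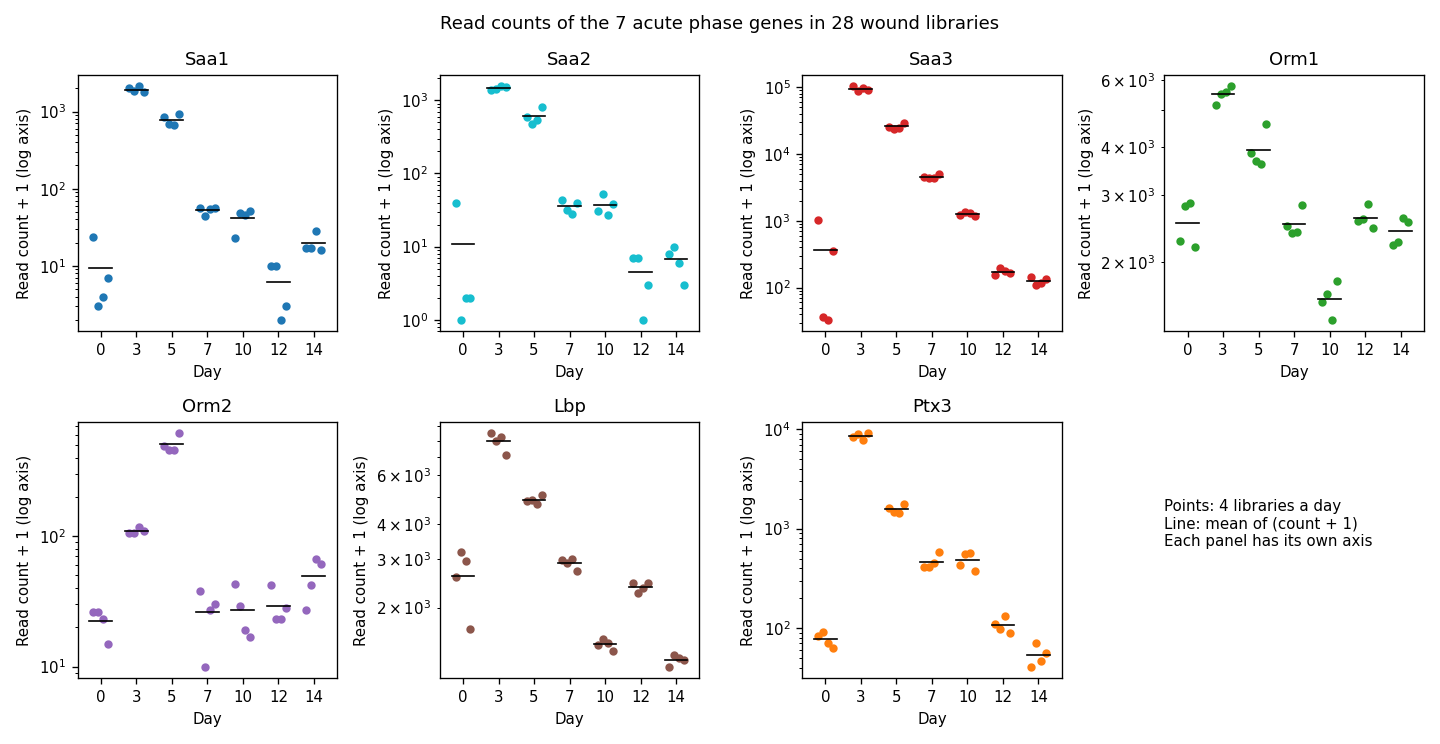
Read counts plus 1 (log axis, one scale per panel) of the 7 acute phase genes in 28 libraries by day. Points are single libraries and lines the mean of 4. All 4 Day3 libraries stand above all Day0 libraries in every panel, and Orm2 is the gene whose highest day is Day5.

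Saa3 had the highest level per length of the 7 genes at its peak on Day3. Its counts in the 4 libraries of Day0 were 1026, 35, 32 and 356, and on Day3 they were 102299, 86441, 98702 and 90731. On Day3 it took 0.222% to 0.263% of all counts in a library. The Day0 libraries were not alike, replicates 1 and 4 being far above replicates 2 and 3, yet all 4 Day3 libraries stood far above all of them. Against Day0 the fitted log2 fold change was 8.06 ± 0.61 (SE, n = 4 a group; edgeR, adjusted p = 3.6e-12), a 267-fold difference. Without Day0 replicate 1 the value was 9.46. The exact two-sided permutation test gave p = 0.0286, the smallest that 4 against 4 libraries allow.

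From Day3 on Saa3 fell at each of the next 4 steps. Its counts were 25617, 23897, 24738 and 29498 on Day5, and 4480, 4330, 4303 and 4971 on Day7. They were 1237, 1348, 1288 and 1169 on Day10, then 156, 199, 174 and 162 on Day12 and 141, 109, 116 and 133 on Day14. No 2 neighbouring days from Day3 to Day14 overlapped. The steps were -1.91, -2.57, -1.87 and -2.995 on the log2 scale up to Day12 (edgeR, adjusted p = 0.0026, 1.1e-04, 0.0026 and 3.6e-05), and the last was -0.40 (adjusted p = 0.60).

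The calls that place Saa3 below Day0 at the end depend on single libraries. The fit placed Day12 at -1.28 ± 0.53 (SE; edgeR, adjusted p = 0.047) and Day14 at -1.68 ± 0.55 (adjusted p = 0.0090). Yet the counts of both days lay inside the range of the Day0 libraries, and the exact permutation test gave p = 1 for Day12 and p = 0.857 for Day14. Without Day0 replicate 1 the values were 0.081 and -0.26, and neither was called. The Day12 call was also lost without Day0 replicate 4 or any 1 of the 4 Day12 libraries. The 2 Day0 libraries high in Saa3, replicates 1 and 4, also had the highest neutrophil marker sums of that day, 42.6 and 38.1 CPM against 16.4 and 16.9 CPM in replicates 2 and 3. They stood apart in other tissues too, with higher sums of wound edge keratinocyte markers (2716 and 2615 against 1351 and 1335 CPM) and skeletal muscle markers (28678 and 29716 against 17056 and 17360 CPM). Their sums of fibroblast markers were lower, 18512 and 10989 against 39834 and 38298 CPM. The part of these differences in the Saa3 values was not tested.

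Saa1 and Saa2, the forms known from plasma, also had their highest levels on Day3, far lower per length than Saa3. Saa1 had 23, 2, 3 and 6 counts on Day0 and 2002, 1825, 2110 and 1769 on Day3. The 2 days did not overlap, and the fitted log2 fold change was 7.85 ± 0.33 (SE; edgeR, adjusted p = 1.7e-17). Saa2 had 38, 0, 1 and 1 counts on Day0 and 1393, 1450, 1546 and 1513 on Day3, a log2 fold change of 7.24 ± 0.47 (adjusted p = 1.4e-13). Replicate 1 held the most Day0 counts of both genes, and nearly all of those of Saa2. Without it the fitted values rose to 9.09 for Saa1 and 10.97 for Saa2, the latter against libraries of 0 or 1 count, where a fitted value depends on the prior count.

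Both genes then fell on Day5, to 847, 686, 672 and 936 counts for Saa1 and 591, 469, 531 and 818 for Saa2. These steps were -1.34 ± 0.21 and -1.33 ± 0.31 on the log2 scale (edgeR, adjusted p = 2.5e-05 and 0.0022). On Day7 they were down to 43 to 56 counts for Saa1 and 27 to 42 for Saa2, steps of -3.97 and -4.17 (adjusted p = 2.9e-12 and 3.2e-09). Day10 did not differ from Day7 by the test for either gene, at -0.36 ± 0.30 for Saa1 and 0.033 ± 0.46 for Saa2. Against Day0, Saa2 was at 1.73 on Day7 and 1.76 on Day10 (edgeR, adjusted p = 0.014 and 0.012). On both days it overlapped Day0, with 1 of 4 libraries above all Day0 libraries and an exact permutation p = 0.114, and without Day0 replicate 1 the values were 5.41 and 5.45. Both calls held with each library left out in turn. Saa1 on Day10, at 2.18 (adjusted p = 7.4e-05), had an exact permutation p = 0.0571. Its value ran from 1.84 to 3.37 with each library left out in turn, and the call held. By Day12 the counts were 9, 9, 1 and 2 for Saa1 and 6, 6, 0 and 2 for Saa2, both fallen from Day10 (-3.06 and -3.44, adjusted p = 3.7e-06 and 2.4e-04).

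Saa1 rose again between Day12 and Day14. Its counts on Day14 were 16, 16, 27 and 15, all above the 4 libraries of Day12, and the step was 1.86 ± 0.52 (SE; edgeR, adjusted p = 0.0050). Saa2, at 7, 9, 5 and 2 counts on Day14, gave 0.76 ± 1.00 (adjusted p = 0.56) and overlapped Day12. For the sum of the pair the step was 1.53 ± 0.66 (adjusted p = 0.059), so the rise is held by the counts assigned to Saa1. Against Day0, Saa1 on Day14 was at 0.98 ± 0.48 (adjusted p = 0.074), and at 2.25, a call, without Day0 replicate 1.

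Per length, Saa3 stood far above Saa1 and Saa2 on Day3, and those were close to each other. In FPKM, the deposited values scaled to gene length and library size, Saa3 was at 4563 ± 350 (SD, n = 4), Saa1 at 48.0 ± 3.9 and Saa2 at 45.8 ± 2.0. By counts, not corrected for length, Saa3 made up 96.5% ± 0.2 (SD, n = 4) of the total of the 3 forms on Day3, 95.0% ± 0.5 on Day5 and 98.1% ± 0.2 on Day7. The lowest share was on Day14, 83.6% ± 4.6, where the 3 genes together had only 134 to 164 counts a library. Day5 against Day3, Day7 against Day5 and Day14 against Day10 each differed without overlap (exact permutation test, p = 0.0286 each and 0.0286 after adjustment over 6 shares tested, which were chosen after the values were seen). Saa4, a form known for its steady level in plasma, had 0 counts in all 4 Day0 libraries and 59 to 85 on Day3. Against a floor of 3 counts per library this is at least 25.1-fold higher.

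**Figure D2:**
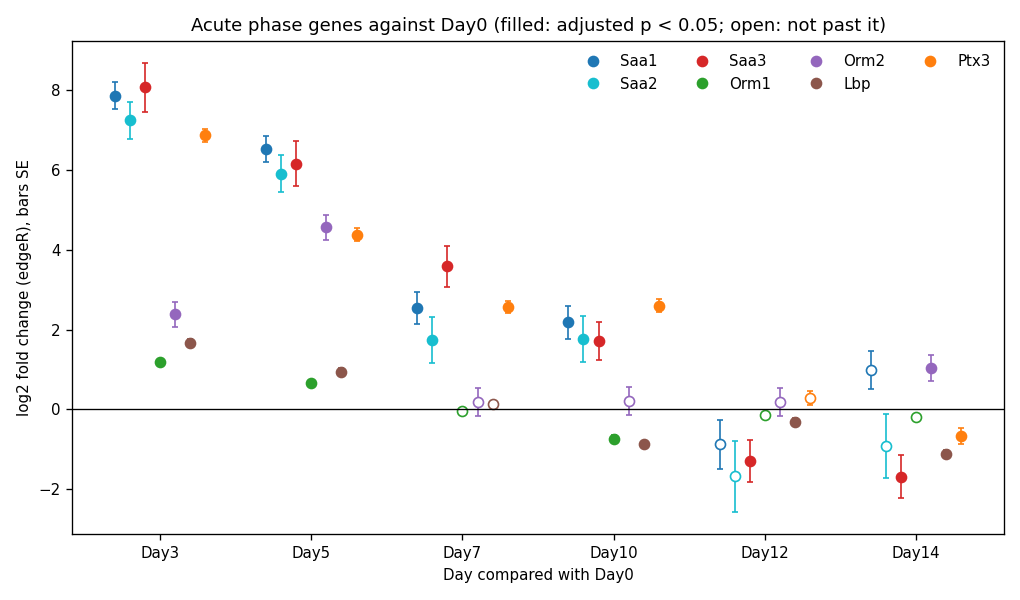
Fitted log2 fold change of each gene against Day0 by day, with bars of 1 SE. Filled points passed an adjusted p of 0.05 and open points did not. On Day3 the serum amyloid genes and Ptx3 stand between 6.86 and 8.06, and Orm1, Orm2 and Lbp between 1.18 and 2.38.

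In the fit to all libraries Ptx3 changed nearly as steeply as the serum amyloid genes, and without the unequal Day0 libraries. Its counts were 83, 90, 69 and 62 on Day0 and 8343, 8947, 7824 and 9085 on Day3. All Day3 libraries were far above Day0, with a log2 fold change of 6.86 ± 0.16 (SE, n = 4 a group; edgeR, adjusted p = 1.1e-22), or 117-fold. With each library left out in turn this value stayed between 6.82 and 6.96, while those of Saa1, Saa2 and Saa3 reached 9.09, 10.97 and 9.46. Per length Ptx3 came after Saa3 and Orm1 on Day3, at 114 ± 8 FPKM (SD, n = 4).

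The way down of Ptx3 had a level stretch. Counts of 1604, 1476, 1435 and 1768 on Day5 (-2.49 ± 0.12 from Day3; edgeR, adjusted p = 3.0e-14) were followed by 411, 410, 455 and 584 on Day7 (-1.81 ± 0.13, adjusted p = 1.3e-11). On Day10 the counts were 427, 557, 570 and 377. They overlapped those of Day7, and the step was 0.030 ± 0.13 (adjusted p = 0.89). Ptx3 then fell to 110, 98, 130 and 89 counts on Day12 (-2.30 ± 0.15, adjusted p = 1.3e-12) and to 40, 69, 46 and 55 on Day14 (-0.95 ± 0.19, adjusted p = 1.8e-04). Against Day0, which had 83, 90, 69 and 62 counts, Day14 was at -0.66 ± 0.20 (adjusted p = 0.0051). In CPM all 4 Day14 libraries lay below all Day0 libraries, while the counts before scaling overlapped.

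Lbp was already well expressed on Day0 and changed less. It had 2583, 3165, 2953 and 1669 counts on Day0 and 8499, 7962, 8234 and 7088 on Day3. The days did not overlap, and the log2 fold change was 1.68 ± 0.10 (SE; edgeR, adjusted p = 2.1e-14), or 3.19-fold. It fell to 4711 to 5072 counts on Day5, 2719 to 2994 on Day7 and 1396 to 1542 on Day10 (steps of -0.75, -0.80 and -1.001, adjusted p = 1.3e-06, 2.7e-07 and 9.6e-09). Day12, at 2264 to 2457 counts, was higher than Day10 by 0.57 ± 0.10 (adjusted p = 3.6e-05), and Day14, at 1224 to 1346, was lower again by 0.81 ± 0.10 (fitted change of -0.81, adjusted p = 2.1e-07). Day14 was the lowest day of Lbp and Day10 the next, and neither overlapped its neighbour in that order. Both lay below all Day0 libraries (-1.12 ± 0.10 and -0.88 ± 0.10, adjusted p = 1.5e-10 and 2.6e-08). On Day12 the call of -0.31 ± 0.10 (adjusted p = 0.010) was lost without Day0 replicate 2 or 3, and the exact permutation test gave p = 0.171.

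Orm1 moved least of the 7. Its counts were 2269, 2803, 2863 and 2190 on Day0 and 5163 to 5773 on Day3, a log2 fold change of 1.18 ± 0.09 (SE; edgeR, adjusted p = 2.0e-12) or 2.26-fold, without overlap. On Day5, at 3621 to 4600 counts, it was down by 0.53 ± 0.09 from Day3 (fitted change of -0.53, adjusted p = 3.4e-05) and still above all Day0 libraries. Day7 overlapped Day0, at -0.048 ± 0.086. Day10, at 1410 to 1778 counts, was its lowest day, below all Day0 libraries (-0.73 ± 0.09, adjusted p = 6.9e-08). From there it rose by 0.58 ± 0.09 to Day12 (adjusted p = 4.3e-06), as Lbp did over the same step. On Day14 it was at -0.19 ± 0.09 against Day0 (adjusted p = 0.051), and called without Day14 replicate 3 or 4. The libraries of Day0, Day7, Day12 and Day14 overlapped between neighbours in the order of levels.

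Orm2 was the exception in time. Counts of 25, 25, 22 and 14 on Day0 stood beside 105, 104, 117 and 108 on Day3 and 489, 455, 457 and 614 on Day5. Each of these 3 days was clear of the others. The step from Day0 to Day3 was 2.38 ± 0.31 (SE; edgeR, adjusted p = 1.6e-07), and that from Day3 to Day5 was a further 2.17 ± 0.26 (adjusted p = 4.9e-07). Over this step Orm2 was the 1 of 7 genes that was higher (12.9% of all genes were), while the other 6 were lower (11.4% of all). On Day7 the counts were back at 37, 9, 26 and 29, a change of -4.36 ± 0.31 (adjusted p = 1.2e-11). Day7, Day10 and Day12 overlapped Day0, with log2 differences of 0.19, 0.21 and 0.19 that did not pass the test. Day14, at 26, 41, 66 and 60 counts, was above Day0 by 1.04 ± 0.33 (adjusted p = 0.0074). In CPM 3 of 4 Day14 libraries lay above all Day0 libraries, and all 4 did in counts before scaling. The exact permutation test gave p = 0.0857.

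The share of Orm2 within its family shows the same turn with Orm1 as its yardstick. Of the counts of Orm1, Orm2 and Orm3, not corrected for length, Orm2 took 0.82% ± 0.19 (SD, n = 4) on Day0, 1.86% ± 0.10 on Day3 and 10.8% ± 0.3 on Day5. On Day7 it took 0.95% ± 0.44. Each of these steps was without overlap (exact permutation test, p = 0.0286, and 0.0286 after adjustment over the 6 shares). The 6 shares were chosen after the values were seen, so these p-values say no more than the lack of overlap. Orm1 thus stayed the main form throughout, with 85.1% ± 0.3 of the counts on Day5 as its lowest mean share. The family sum rose by 1.21 ± 0.09 on Day3 and was 0.84 ± 0.09 above Day0 on Day5 (edgeR, adjusted p = 1.5e-12 and 3.4e-09). It follows Orm1, so that the Orm2 values rest on counts that were told apart from a far more abundant neighbour. Orm3 had 36 to 94 counts on Day0 and 202 to 252 on Day3 (1.90 ± 0.23, adjusted p = 4.5e-08). Its step from Day3 to Day5 was -0.29 ± 0.22 (adjusted p = 0.36).

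**Figure D3:**
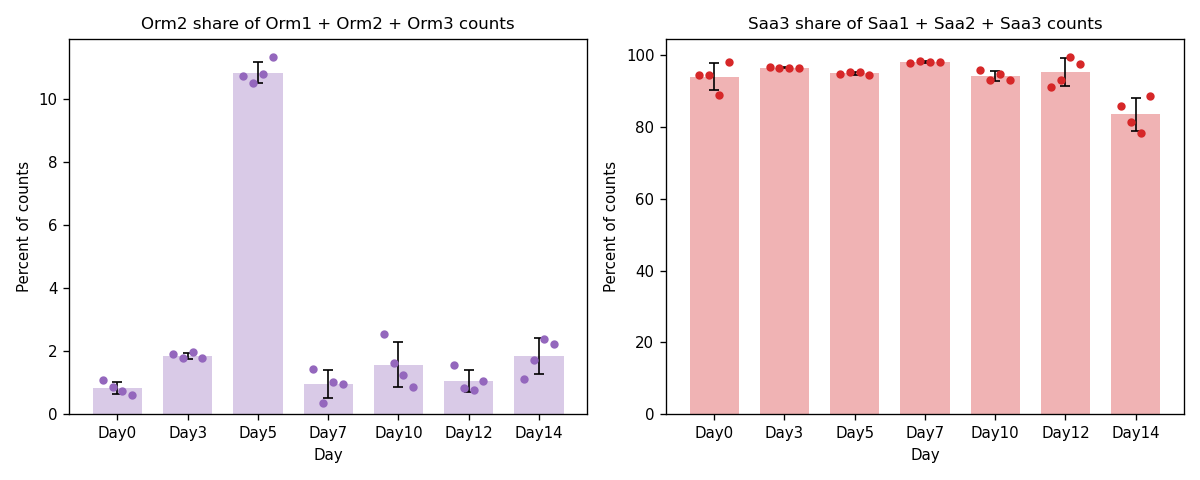
Percent of counts taken by Orm2 within Orm1, Orm2 and Orm3 (left) and by Saa3 within Saa1, Saa2 and Saa3 (right), by day. Points are libraries, bars the mean of 4 and lines the SD. The Orm2 share on Day5, 10.5% to 11.3%, is above that of every other day, and the Saa3 share is lowest on Day14.

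The remaining steps between neighbouring days were as follows. From Day5 to Day7 all 7 genes were lower (14.6% of all genes were) and 0 higher (13.9%). From Day7 to Day10, Saa3, Orm1 and Lbp were lower, 3 of 7 (18.0% of all), and 0 were higher (14.3%). From Day10 to Day12 the 3 serum amyloid genes and Ptx3 were lower, 4 of 7 (20.7% of all), and Orm1 and Lbp were higher (18.7%). From Day12 to Day14, Saa1 and Orm2 were higher (19.9% of all) and Lbp and Ptx3 lower (25.3%). The rise of Orm2 over that last step, 0.85 ± 0.32 (SE; edgeR, adjusted p = 0.030; exact permutation p = 0.0571), was lost without any 1 of 5 libraries.

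Together the 7 genes took 0.0144% ± 0.0018 (SD, n = 4) of all counts on Day0, 0.308% ± 0.018 on Day3 and 0.0961% ± 0.0096 on Day5. By Day10 it was 0.0125% ± 0.0005, and by Day14 0.0102% ± 0.0006. Across the 28 libraries the log2 CPM values of Saa1, Saa2, Saa3 and Ptx3 ran closely together, with Pearson r between 0.92 and 0.98, and those of Orm1 and Lbp had r = 0.92. Orm2 was the least like the rest, with r from 0.61 against Ptx3 to 0.77 against Saa1. These are descriptions over 28 libraries that share 7 days, and hence the course of healing, and they carry no p.

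Genes with the most similar course were found by the same Pearson r among all genes tested, 3 per member. Saa1 and Saa2 had each other first (r = 0.98), and then Ier3, an early response gene. Saa3 had Cd300lf (r = 0.99), an inhibitory receptor of myeloid cells, Slc15a3 (0.99), a peptide transporter of lysosomes, and Timp1 (0.99), an inhibitor of matrix proteases. For Ptx3 they were Cxcl1 (0.98), a chemokine that draws neutrophils, Pdpn (0.98), podoplanin, and Csf2rb (0.97), the shared receptor chain for GM-CSF and related cytokines. Orm1 had Btg2 (0.97), an antiproliferative gene, Pnp (0.95), a purine enzyme, and Plbd1 (0.95). Lbp had Snx2 (0.99), a sorting nexin, Stat6 (0.98), which carries the interleukin 4 signal, and Tbc1d14 (0.98). The nearest to Orm2 were less close, Gm30843 (0.91), Cars2 (0.91) and Gm34854 (0.91). By Spearman rho over the same libraries 1 of 3 stayed for Saa1, Saa2 and Orm1 and 0 of 3 for the other 4 genes, so the names depend on the measure.

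Cytokines known to drive acute phase genes were higher on Day3 as well. Of 9 in the list, 9 of 9 were called higher on Day3, 7 on Day5, 6 on Day7 and 4 on Day10, beside 31.8%, 29.0%, 25.6% and 23.5% of all genes. Il6 went from 5 to 50 counts on Day0 to 1469 to 1700 on Day3 (6.33 on the log2 scale) and to 339 to 436 on Day5. Il1b had 293 to 669 counts on Day0, 26202 to 30715 on Day3 and 19064 to 23102 on Day5. Osm (oncostatin M) stood at 6.09 on Day3 and 5.33 on Day5 on the log2 fold scale. The median log2 fold change of the list was 4.43 on Day3, against -0.032 over all genes tested. On Day14 it was -0.86, with 0 higher and 5 lower (28.2% and 34.5% of all genes).

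Among 14 receptors and transducers of these signals, 12 were higher and 1 lower on Day3 (31.8% and 34.8% of all genes), with a median log2 fold change of 1.05. Socs3, the feedback inhibitor of STAT3 signalling, was at 2.86 on the log2 fold scale, Il1r1 at 2.06, Cebpb at 1.73 and Stat3 at 1.16. Nr3c1, the glucocorticoid receptor, was the 1 gene lower (-0.53). On Day14 the count had turned to 1 higher and 13 lower (28.2% and 34.5% of all genes), Cebpb being the gene still higher (0.50) and Cebpd and Il6ra among the lower (-1.96 and -2.02).

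Of 20 receptors and partners of the 7 proteins, 19 were tested and 16 were higher and 1 lower on Day3 (31.8% and 34.8% of all genes). For Lbp, Cd14 was at 4.06 on the log2 fold scale, Tlr4 at 1.34 and Ly96 at 0.82. The formyl peptide receptor Fpr2, which binds serum amyloid A, was at 4.81 and its relative Fpr1 at 6.30. Tnfaip6 and Selp, which bind Ptx3, were at 2.59 and 2.66. On Day14, 16 of 19 were lower (34.5% of all genes) and 1 higher (28.2%), Cd36, a scavenger receptor (0.68).

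Most other acute phase genes tested were also higher on Day3. Of 18, 15 were tested, and 13 were higher and 1 lower on Day3 (31.8% and 34.8% of all genes), with a median log2 fold change of 2.79. On Day5, 12 were higher and 0 lower (29.0% and 30.6% of all), on Day7 9 and 0 (25.6% and 24.8%), and on Day10 6 and 5 (23.5% and 26.9%). On Day12 it was 4 higher and 6 lower (21.7% and 25.6%), and on Day14 4 and 7 (28.2% and 34.5%). Itih4, a heavy chain of the inter-alpha-trypsin inhibitor family, went from 16 to 102 counts on Day0 to 25430 to 33576 on Day3 (a log2 fold change of 9.53). Hpx, which binds heme, went from 3 to 15 counts to 1253 to 1457 (7.27). Lcn2, which binds bacterial siderophores, was at 6.71, and Serpina3n at 2.49. Hp (haptoglobin) was the most abundant per length of all of these on Day3, at 5665 FPKM against 4563 FPKM for Saa3, with a log2 fold change of 3.26. The fibrinogen genes Fga, Fgb and Fgg did not pass the filter on low counts, and Hamp, the iron hormone of the liver, was lower (-2.60, at 0.30 CPM on Day0).

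**Figure D4:**
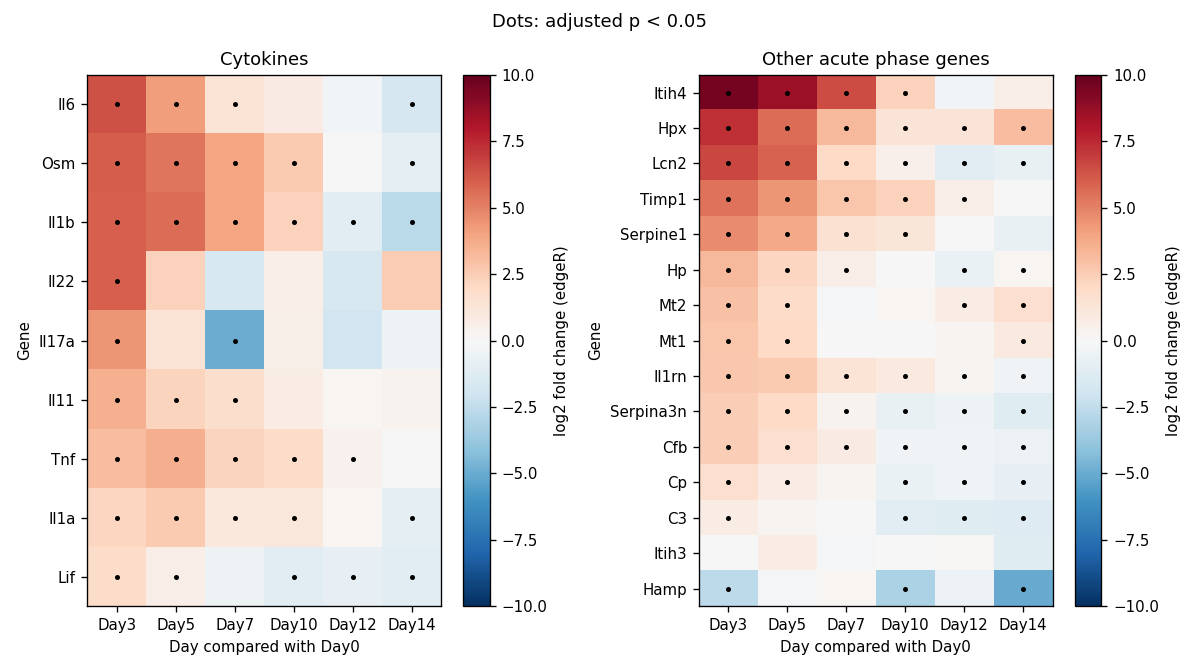
Fitted log2 fold change against Day0 (colour, -10 to 10) of 9 cytokines (left) and 15 other acute phase genes (right) by day. Black dots mark an adjusted p under 0.05. Itih4, Hpx and Lcn2 are the highest acute phase genes on Day3, and Il6 the highest cytokine.

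Relatives of the 7 proteins and the acute phase genes that fall in plasma gave a mixed picture. Of 10 relatives 5 were tested, with 2 higher (Saa4, Orm3) and 2 lower (Nptx1, Nptx2) on Day3, near the shares over all genes (31.8% and 34.8%). Crp and Apcs, the short pentraxins, did not pass the filter. Of 7 negative acute phase genes 5 were tested, and Alb, Rbp4 and Ttr were called lower on Day3 (34.8% of all genes were) and Ahsg higher (31.8%). The call of Ttr rests on few counts, 0 to 12 a library on Day0 and 0 to 1 on Day3, which overlapped (exact permutation p = 0.429). All of these but Rbp4 and Trf were at under 5 CPM on Day0.

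Markers of hepatocytes were near 0. The summed level of 10 hepatocyte markers was 3.47 to 7.70 CPM on Day0 and 1.86 to 2.46 CPM on Day3, when all of the 7 genes but Orm2 were at their highest. On Day5, the highest day of Orm2, it was 1.87 to 2.79 CPM. Apob had 0 counts in all 4 Day3 libraries, and Alb had 34 to 50 counts. The sum was higher on Day12 and Day14 (12.9 to 15.9 and 15.5 to 17.3 CPM), mostly through Cps1, which had 523 to 553 counts on Day14. Of 6 hepatocyte markers tested, 1 was called higher and 4 lower on Day3 (31.8% and 34.8% of all genes), Ttr with its few counts among the lower.

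Several lists of markers of other cells were higher on the days when the 7 genes were, others were not, and their part in the results was not tested. All 8 neutrophil markers were higher on Day3, with a median log2 fold change of 7.81. That median includes Ly6g and Ngp, which had 0 counts in all Day0 libraries, where a fitted value depends on the prior count. Against a floor of 3 counts per library they were at least 125-fold and 32.7-fold higher. The sum of all 8 was 4371 to 5516 CPM on Day3, 1590 to 2001 on Day5, 541 to 955 on Day7 and 223 to 247 on Day10. It was 20.3 to 23.2 CPM on Day12 and 15.2 to 18.6 on Day14. Macrophage markers summed to 1809 to 2727 CPM on Day0, 5240 to 5514 on Day3 and 5343 to 5810 on Day5. Erythroid markers, a sign of blood, were also higher on Day3 (157 to 237 CPM on Day0, 1256 to 1566 on Day3). So were the sums of wound edge keratinocyte markers (1335 to 2716 CPM on Day0, 4329 to 5344 on Day3) and endothelial markers (416 to 598 and 825 to 906 CPM). The sum of skeletal muscle markers was lower on Day3 than on Day0 (17056 to 29716 CPM on Day0, 3881 to 4993 on Day3). So was that of white adipocyte markers (3965 to 4911 and 3165 to 3576 CPM), whose members went both ways. Cfd (mean of 2860 CPM on Day0 and 1569 on Day3), Lep and Adipoq were called lower. Lipe was called higher (0.95 on the log2 scale), and Plin1 and Cidec were not called. Fibroblast markers, at 10989 to 39834 CPM on Day0 and 18227 to 19839 on Day3, had their highest medians on Day7 and Day10 (42926 and 41007 CPM).

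The summed level of brown fat markers was highest on Day5, as was Orm2. The medians of the macrophage and endothelial sums were also highest on Day5, though close to Day3. They were 5429.5 against 5332 CPM and 889 against 883 CPM. The sum of the 7 brown fat markers was 254 to 302 CPM on Day0, 1180 to 1527 on Day3, 2331 to 2700 on Day5 and 966 to 1140 on Day7. It then was 732 to 782 CPM on Day10, 199 to 219 on Day12 and 855 to 1092 on Day14. Most of the Day5 sum was Ucp1, the uncoupling protein of brown fat, with a mean of 1824 CPM. Of the 7 markers, Ucp1, Cidea and Ppargc1a had their highest mean on Day5, Dio2 and Cox8b on Day3, Zic1 on Day10 and Elovl3 on Day14. Elovl3 was lower on Day5 than on Day0 (-0.54 on the log2 scale). Orm2 likewise was higher on Day14 than on Day12, but on Day7 and Day10 its counts overlapped those of Day0, while the sums of these markers did not. Whether brown fat in the sample bears on the Orm2 values was not tested.

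**Figure D5:**
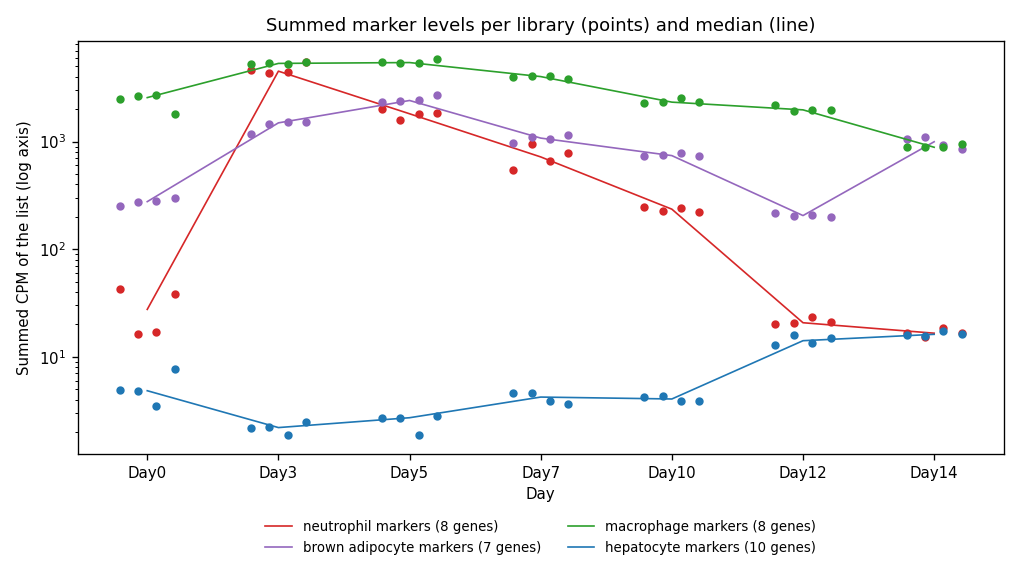
Summed CPM (log axis) of 4 marker lists in each library by day, with lines through the daily median. Neutrophil markers peak on Day3 at 4371 to 5516 CPM and brown adipocyte markers on Day5 at 2331 to 2700 CPM, while hepatocyte markers stay below 18 CPM throughout.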

How the data were processed

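RNA of healing skin was extracted with TRIzol and made into libraries with the VAHTS Universal V6 kit, 4 libraries at each of 7 times. The authors deposited read counts per gene symbol for 29068 genes, without normalization, and FPKM values that follow from these counts, a gene length and the library total. The submitters' processing notes name the build mm10, fastp and R 3.2.0. Aligner, counter, annotation and strandedness are not given in the sources used here. The notes speak of more repeats per time than the 4 libraries used here.

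The test was the two-sided quasi-likelihood test of edgeR 4.0.16 under R 4.3.3 (TMM, filterByExpr, glmQLFit, glmQLFTest), with all 28 libraries fitted together, 21 residual degrees of freedom and no covariate. It ran on the 18107 genes left by the filter, with Benjamini-Hochberg adjustment over all of them. Each later day was compared with Day0 and with the day before, 11 comparisons in all, and comparisons with Day0 share its 4 libraries. The study's cut-offs (log2 fold change over 1.5 and P under 0.05) were applied to this edgeR fit as an alternative, whereas the study used DESeq2. SE is the log2 fold change divided by the root of F. Single genes were also compared by the exact permutation test on log2 CPM (prior count 2). A floor of 3 counts stands for a count of 0, and it covers counting error only. Scripts were tested on simulated counts.

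The genes named are the 7 members, the genes of fixed lists, and the 3 genes most like each member. The members and lists were chosen with earlier results of these data known, and no list was tested as a set. Gene positions are from GENCODE vM21 (GRCm38, the same assembly as mm10), promoters from RefSeq. Replicate numbers did not pair the libraries: deviations of same-numbered libraries from their day means had median correlations of -0.014 to 0.0032, and 8 of 28 libraries correlated best with their own number. No 2 libraries were alike within counting noise. Alternatives were 3 other normalizations, 2 other filters, DESeq2 1.42.0, limma 3.58.1 on log2(FPKM + 1) and log2(FPKM + 0.1), edgeR on the 8 libraries of a comparison, a replicate block, near-identical genes summed, and each library left out in turn.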

Additional observations from a re-analysis of the deposited data

Results flagged for a closer look

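In 3 of 49 groups of 4 libraries (7 genes on 7 days), 1 library stood apart from the other 3 by Dixon's criterion, where chance alone gives about 2.45 such groups. Saa2 in Day0 replicate 1 was at 0.076 log2 CPM, while the other 3 Day0 libraries lay between -4.30 and -3.67. Saa1 in Day10 replicate 1 was at -0.73 log2 CPM, below the 0.23 to 0.40 of the other 3. Saa1 in Day14 replicate 3 was at -0.49 log2 CPM, above the -1.29 to -1.19 of the other 3.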

How the results depend on the processing

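The 7 genes higher on Day3 and on Day5 stayed 7 under every alternative run but 2. These were the study's cut-offs on the edgeR fit and the filter of at least 10 counts in every library. The latter by its construction left 4 of the 7 genes to test. That filter gave 4 higher on Day3 and Day5, 2 on Day7 and Day10 and 0 on Day14, 0 higher for Day5 against Day3, 4 lower for Day7 against Day5, 2 lower for Day12 against Day10 and 0 higher for Day14 against Day12. On the edgeR fit, the study's cut-offs gave 6 higher on Day3, 5 on Day5, 0 lower on Day10 and Day12, and 0 higher and 1 lower on Day14. Between neighbouring days they gave 2 lower for Day5 against Day3, 1 lower for Day10 against Day7 and 0 higher for Day12 against Day10. For Day14 against Day12 they gave 1 higher and 0 lower.

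Most other changes touched Day12 and Day14, and where no reason is given the cause was not tested. The number lower on Day12 was 2, and it was 0 without composition normalization, in the 3 limma fits and with the 8 libraries alone, and 1 with DESeq2 and with the replicate block. No composition normalization and limma on log2(FPKM + 0.1) gave 1 higher on Day12. The number higher on Day14 was 2 without composition normalization, with DESeq2, with limma on log2(FPKM + 0.1) and with limma at a mean FPKM of at least 1, and limma on log2(FPKM + 1) gave 1 lower. Limma on log2(FPKM + 0.1) gave 1 higher for Day14 against Day12, and the 8 libraries alone gave 2 higher on Day10. The replicate block changed no other count.

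Some differences changed sign, among them Saa3 on Day12, a call at -1.28, and Saa2 on Day14, at -0.91 with no call. Saa3 on Day12 was 0.010 with limma on log2(FPKM + 1), at either filter, and 0.19 on log2(FPKM + 0.1). Orm2 for Day12 against Day10 was 0.067 without composition normalization and 0.034, 0.10 and 0.034 in the limma fits, and Saa2 on Day14 was 0.29 on log2(FPKM + 0.1) and 0.26 summed with Saa1. The sum of Orm1, Orm2 and Orm3 was at -0.023, -0.72, -0.16 and -0.16 on Day7, Day10, Day12 and Day14. The median of all genes, -0.037 on Day12 and -0.056 on Day14, moved by more than 0.1 without composition normalization (0.11 and 0.070), with limma on log2(FPKM + 0.1) (0.10 and 0.066) and with limma at a mean FPKM of at least 1 (0.11 and 0.097).

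With each library left out in turn, the number lower on Day12 was 1 to 2, the number higher on Day14 was 1 to 3, the number lower on Day14 was 2 to 4 and that for Day14 against Day12 was 1 to 2. Log2 fold changes against Day0 then ranged from -1.27 to 0.33 (Saa1, Day12), -2.09 to 2.03 and -1.29 to 2.85 (Saa2, Day12 and Day14), -1.66 to 0.081 (Saa3, Day12), -0.10 to 0.011 (Orm1, Day7), -0.019 to 0.22 (Lbp, Day7), and -0.053 to 0.47, -0.12 to 0.39 and -0.065 to 0.30 (Orm2, Day7, Day10 and Day12). Between neighbouring days they ranged from -0.17 to 0.15 (Saa2), -0.31 to 0.26 (Orm2) and -0.070 to 0.16 (Ptx3) for Day10 against Day7, from -0.27 to 0.33 for Orm2 on Day12 against Day10, and from -0.095 to 0.00043 for Orm1 on Day14 against Day12. The call of Saa3 on Day12 was lost without any 1 of 6 libraries. Depth limits Saa1, Saa2 and Orm2, which had under 100 counts a library on Day0 and from Day7 on.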
